A study of Mus musculus with 3 samples.

Results

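PU.1 and other ETS factors are transcription factors that share a DNA-binding ETS domain. Described here are 10 genes of the family, Spi1, Spib, Ets1, Ets2, Fli1, Elf1, Elf2, Elf4, Etv6 and Gabpa, chosen by name out of 55536 genes listed. The sample was total RNA of peripheral blood monocytes. It came from adult mice of strain C57BL/6J, aged 5 to 6 weeks, and gave 3 libraries of 1 group. Each library was made from 100 ng of RNA after depletion of ribosomal RNA. No treatment, mutation or transgene is recorded for any library. The libraries are numbered as biological replicates 1, 2 and 3, yet all carry 1 donor record, so the spread between them may be partly technical. With 1 group there is no contrast of conditions, and levels were compared with a fixed level of 1 TPM, the authors' length-scaled measure of transcript abundance, and between libraries.

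The ETS domain binds DNA around a GGAA core through a recognition helix, in which a pair of conserved arginines contacts the core bases. PU.1, encoded by Spi1, is the ETS factor that commits progenitors to the myeloid lineage and keeps macrophage genes active, and its dose differs between blood lineages. Other members are known from lymphocytes and natural killer (NK) cells (Ets1, Elf4), from B cells and plasmacytoid dendritic cells (Spib), from megakaryocytes (Fli1, Etv6) or from most cells (Gabpa, Elf1, Elf2).

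The stretches below show the part of each coding sequence that encodes the middle of the recognition helix, because it is what the 10 genes share. They were read from the coding transcript of each gene with the highest mean TPM (GENCODE M21, GRCm38), are each 39 bases long, run 5′ to 3′ on the coding strand, and carry both arginine codons in capitals.
Spi1-201: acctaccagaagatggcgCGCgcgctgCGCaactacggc
Spib-201: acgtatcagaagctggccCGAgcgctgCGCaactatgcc
Ets1-201: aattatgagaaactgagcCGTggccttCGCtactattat
Ets2-201: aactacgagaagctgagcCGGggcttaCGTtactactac
Fli1-201: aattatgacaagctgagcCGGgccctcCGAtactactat
Elf1-202: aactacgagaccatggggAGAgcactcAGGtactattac
Elf2-201: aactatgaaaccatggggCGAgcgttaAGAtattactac
Elf4-201: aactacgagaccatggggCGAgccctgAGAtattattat
Etv6-202: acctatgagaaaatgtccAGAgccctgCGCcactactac
Gabpa-201: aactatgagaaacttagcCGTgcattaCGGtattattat

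Spi1 and Spib were identical at 32 of 39 bases, Ets1 and Fli1 at 32, and Elf1 and Elf4 at 33. The fewest identical bases, 19, were between Spi1 and Gabpa. The Spi1 stretch lies at chr2:91115251-91115289 (plus strand), in the last exon of the gene. At the gene level the authors' posterior standard deviation of the count, a score for reads that could belong elsewhere, was 0 in 29 of the 30 gene and library pairs and 0.08 counts in the other.

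Of the 10 genes, 9 lay above 1 TPM and none below it, while Spib lay on neither side (edgeR quasi-likelihood test with Benjamini-Hochberg adjustment over 17678 genes). Over all genes tested, 43.2% lay above and 6.35% below. Of the 12984 protein-coding genes among them, 7018 lay above and 781 below. At an unadjusted p under 0.05 the edgeR count of the 10 genes below was also 0, and it was 0 by DESeq2 and by limma. The median of the 10 mean levels was 9.89 TPM, beside 2.09 TPM over the protein-coding genes tested. The deposited scale counts every RNA in the tables, and protein-coding genes held 10.9%, 9.84% and 10.7% of TPM in libraries 1, 2 and 3. By mean TPM among 21951 coding genes listed, Spi1 ranked 329th and Spib 7505th, and the other 8 ranked between them.

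**Figure D1:**
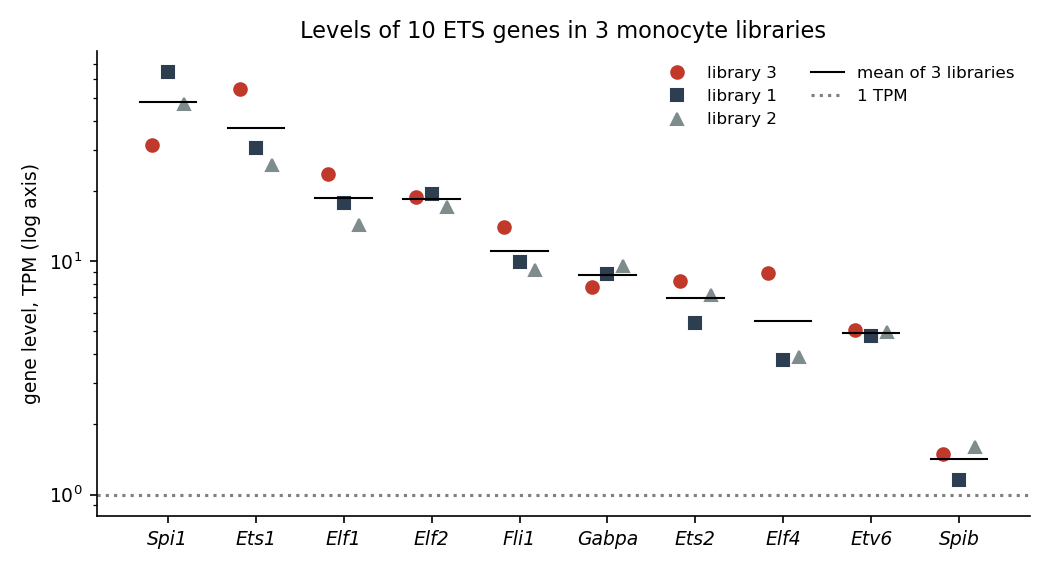
Gene level in TPM (log axis) of each of the 10 ETS genes. Points are libraries, black bars the mean of 3 libraries and the dotted line 1 TPM. Spi1 and Ets1 have the highest means, 47.9 and 37.0 TPM, and Spib the lowest, 1.41 TPM.

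Spi1 (ENSMUSG00000002111.8, chr2:91082390-91115756, mm10, plus strand), which encodes PU.1, had 64.7, 47.3 and 31.6 TPM in libraries 1, 2 and 3. The mean was 47.9 TPM ± 16.6 (SD, n = 3; edgeR adjusted p = 5.25e-12). Library 1 was highest and library 3 lowest. Spib (ENSMUSG00000008193.13, chr7:44525993-44532071, minus strand), the closest relative of PU.1, had 1.15, 1.60 and 1.49 TPM, from 337, 511 and 277 counts. Its mean of 1.41 TPM ± 0.235 (SD, n = 3; edgeR adjusted p = 0.132) was not told apart from 1 TPM.

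Ets1 (ENSMUSG00000032035.15, chr9:32636221-32757820), a factor needed for NK and T cell development, had 30.6, 25.7 and 54.8 TPM. Its mean was 37.0 TPM ± 15.6 (SD, n = 3; edgeR adjusted p = 1.12e-11), and library 3 stood above both others. Ets2 (ENSMUSG00000022895.16, chr16:95702075-95721051), its close relative and a target of MAP kinase signalling in macrophages, had 5.41, 7.19 and 8.23 TPM. Fli1 (ENSMUSG00000016087.13, chr9:32422204-32542861), needed for platelet formation, had 9.91, 9.19 and 14.1 TPM. Fli1 and Ets1 are neighbours, on opposite strands and 93359 bases apart. Both had their highest TPM in library 3, and so did Ets2. The median coding gene was also higher there, by 0.21 (log2) against library 1 and 0.37 against library 2. Minus that median, Fli1 differed by 0.29 and 0.24 and Ets2 by 0.39 and -0.18.

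The ELF subfamily gave a flat and an uneven member. Elf1 (ENSMUSG00000036461.16, chr14:79481194-79582494), an activator in lymphoid and myeloid cells, had 17.8, 14.3 and 23.7 TPM. Elf2 (ENSMUSG00000037174.18, chr3:51252720-51340663), expressed as activating and repressing isoforms, had 19.5, 17.1 and 18.9 TPM, a mean of 18.5 TPM ± 1.21 (SD, n = 3). Elf4 (ENSMUSG00000031103.12, chrX:48411046-48463132), which activates the perforin gene in NK cells, had 3.77, 3.88 and 8.89 TPM. Elf2 thus stayed within a narrow range, whereas Elf4 had the widest relative spread of the 10 genes, a coefficient of variation of 53.0%. Elf4 was also the widest in the authors' second set of transcript values, derived directly from the reads, and with coding transcripts alone.

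Etv6 (ENSMUSG00000030199.16, chr6:134035700-134270158), a repressor that maintains blood stem cells, had 4.79, 4.95 and 5.08 TPM. Its coefficient of variation was 2.94% in the M21 gene table. It was 22.1% in the second set of transcript values, where Elf2 was narrowest, and 15.3% with coding transcripts alone, where Gabpa was narrowest. Gabpa (ENSMUSG00000008976.16, chr16:84834925-84863779), the DNA-binding subunit of GABP, a regulator of nuclear genes for mitochondria, had 8.85, 9.54 and 7.78 TPM. The median coefficient of variation was 22.2% over the 10 genes and 24.5% over coding genes with a mean of 1 TPM or more.

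By mean TPM the genes ran Spi1, Ets1, Elf1, Elf2, Fli1, Gabpa, Ets2, Elf4, Etv6 and Spib. Of the 9 pairs of neighbours in this order, 3 had ranges over the libraries that did not overlap: Ets1 above Elf1, Elf2 above Fli1, and Etv6 above Spib. The other 6 pairs overlapped, Spi1 and Ets1 among them, and in library 3 Ets1 stood at 54.8 TPM and Spi1 at 31.6 TPM. The smallest p that an exact sign-flip test can reach with 3 libraries is 0.25, so the order was not tested.

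By TPM, which divides by length, most of the Spi1 level came from transcripts that begin far upstream of the full coding transcript. Spi1-202, a noncoding transcript of 613 bases with 2 exons, starts 13688 bases before Spi1-201 and ends 5786 bases before it. Spi1-204 starts in the same upstream exon, skips to the second exon of Spi1-201 and is annotated as coding, but stops before the last exon, so it lacks the recognition helix stretch shown above. In mouse, upstream enhancer elements of Spi1 and noncoding RNA made near the gene are known, but the files do not mark them. The first junctions show how the transcripts part, with the downstream exon in capitals. For Spi1-201 and Spi1-204 the lower-case letters begin at the annotated start codon, and Spi1-202 shares the lower-case stretch of Spi1-204.
Spi1-201: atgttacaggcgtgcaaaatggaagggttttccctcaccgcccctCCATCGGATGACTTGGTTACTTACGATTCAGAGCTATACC
Spi1-204: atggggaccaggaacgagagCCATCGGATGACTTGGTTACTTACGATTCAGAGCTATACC
Spi1-202: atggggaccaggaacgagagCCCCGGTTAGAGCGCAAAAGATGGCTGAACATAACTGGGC

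Spi1-202 had 38.5, 27.7 and 16.2 TPM in libraries 1, 2 and 3, or 59.5%, 58.6% and 51.3% of the gene's TPM. Spi1-201, the full coding transcript of 2034 bases, had 10.4, 12.5 and 11.1 TPM, from 2178, 2833 and 1555 counts. Spi1-202 took 1892, 1519 and 525 counts. The level of Spi1-201 was nearly even across libraries, while that of Spi1-202 was not. Both transcripts of the upstream start together had 52.3, 34.6 and 19.8 TPM, and both of the promoter start (Spi1-201 and the short Spi1-203) had 12.4, 12.7 and 11.8 TPM. By counts the upstream start had 2464, 1838 and 622 and the promoter start 2228, 2841 and 1567, so the upstream start took the smaller part of the reads in libraries 2 and 3. In the second set of transcript values the upstream start held 78.6%, 72.6% and 68.2% of Spi1 TPM, beside 80.8%, 73.1% and 62.6% in the first set. Counting coding transcripts alone, Ets1 led with a mean of 33.3 TPM ± 13.4 and Spi1 followed at 20.4 TPM ± 5.46 (SD, n = 3 each).

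**Figure D2:**
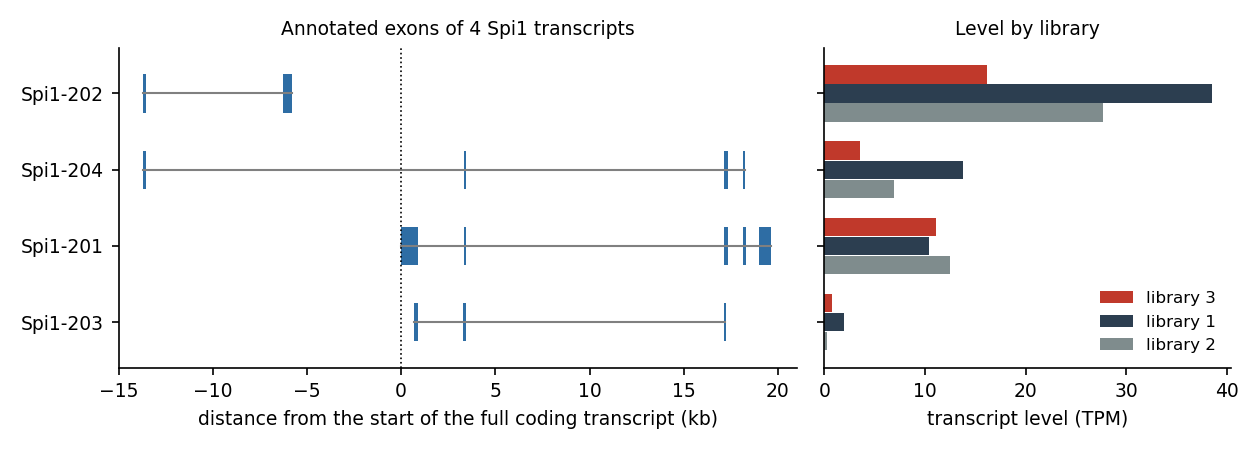
Left, annotated exons of the 4 Spi1 transcripts (boxes) by distance in kb from the start of Spi1-201. Right, the level of each transcript in TPM by library. Spi1-202, wholly upstream, runs from 16.2 TPM in library 3 to 38.5 TPM in library 1, while Spi1-201 stays between 10.4 and 12.5 TPM.

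Ets2 split the other way, between its coding transcripts and transcripts annotated as retaining introns. Ets2-201, the longer of its 2 coding transcripts, had 2.44 TPM in library 3, against 4.89 TPM in library 1 and 5.36 TPM in library 2. The 4 retained-intron transcripts together had 5.61 TPM in library 3, against 0.52 TPM in library 1 and 1.41 TPM in library 2. These were 68.2% of Ets2 TPM in library 3, against 9.61% in library 1 and 19.6% in library 2; in the second set of values, 65.9% against 24.7% and 32.3%. Scaled by depth alone, as CPM, Ets2 was lowest in the library where its TPM was highest, at 65.0 CPM in library 3, against 79.1 CPM in library 1 and 103 CPM in library 2. The deposited gene length of Ets2 was 2256 bases in library 3, against 3712 bases in library 1 and 3278 bases in library 2. It is a mean over the transcripts and is not the effective length by which TPM divides. A retained-intron share more than 20 percentage points higher in library 3 than in both others was seen in 3.88% of 5387 genes that have such transcripts. Over all coding genes that share of TPM was 16.2% in library 3, against 13.3% in library 1 and 13.3% in library 2. The part of that difference in the Ets2 pattern was not tested.

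Elf4 is read from 2 starts on the minus strand that lie 8963 bases apart. Elf4-201 of the upstream start and Elf4-202 of the downstream start have the same coding length, 1965 bases. Elf4-203, also of the upstream start, has a shorter one of 1173 bases. The downstream start (Elf4-202) had 3.12 TPM in library 3, against 0.38 TPM in library 1 and 0.48 TPM in library 2, from 1399, 250 and 349 counts. The upstream start had 5.77 TPM in library 3, against 3.40 TPM in library 1 and 3.40 TPM in library 2. The downstream start thus held 35.1% of Elf4 TPM in library 3, against 10.1% and 12.4%, and in the second set of values 35.8% against 8.64% and 9.90%. The sets differed within the upstream start. Elf4-203 was at 0 TPM in the first set, but held 53.2% of Elf4 in library 3 of the second, against 37.8% and 41.7%. Elf4-201 held 11.0% there, against 53.5% and 48.4%.

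The 300-base windows around both annotated starts, 250 bases before and 50 after, follow as RefSeq gives them (GRCm38.p6), 5′ to 3′ along the gene, with the ETS core GGAA, or TTCC on the other strand, in capitals. They are shown because start use differed between libraries. The RefSeq start of the downstream window lies 150 bases upstream of the GENCODE start of Elf4-202, which falls outside it.
Elf4 upstream start, chrX:48463083-48463382, minus strand: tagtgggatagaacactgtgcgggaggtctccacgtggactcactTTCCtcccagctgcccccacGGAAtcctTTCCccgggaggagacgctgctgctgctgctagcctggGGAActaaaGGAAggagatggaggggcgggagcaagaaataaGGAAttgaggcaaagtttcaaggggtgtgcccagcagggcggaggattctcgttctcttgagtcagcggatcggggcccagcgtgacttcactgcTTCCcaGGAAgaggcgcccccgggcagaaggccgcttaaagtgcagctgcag
Elf4 downstream start, chrX:48454270-48454569, minus strand: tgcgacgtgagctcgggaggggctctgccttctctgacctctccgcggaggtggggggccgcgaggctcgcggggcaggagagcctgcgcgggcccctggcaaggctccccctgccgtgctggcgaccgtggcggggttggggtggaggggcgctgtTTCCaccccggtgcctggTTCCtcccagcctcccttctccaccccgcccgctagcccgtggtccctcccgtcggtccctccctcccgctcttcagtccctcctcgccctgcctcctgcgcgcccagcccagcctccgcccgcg

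**Figure D3:**
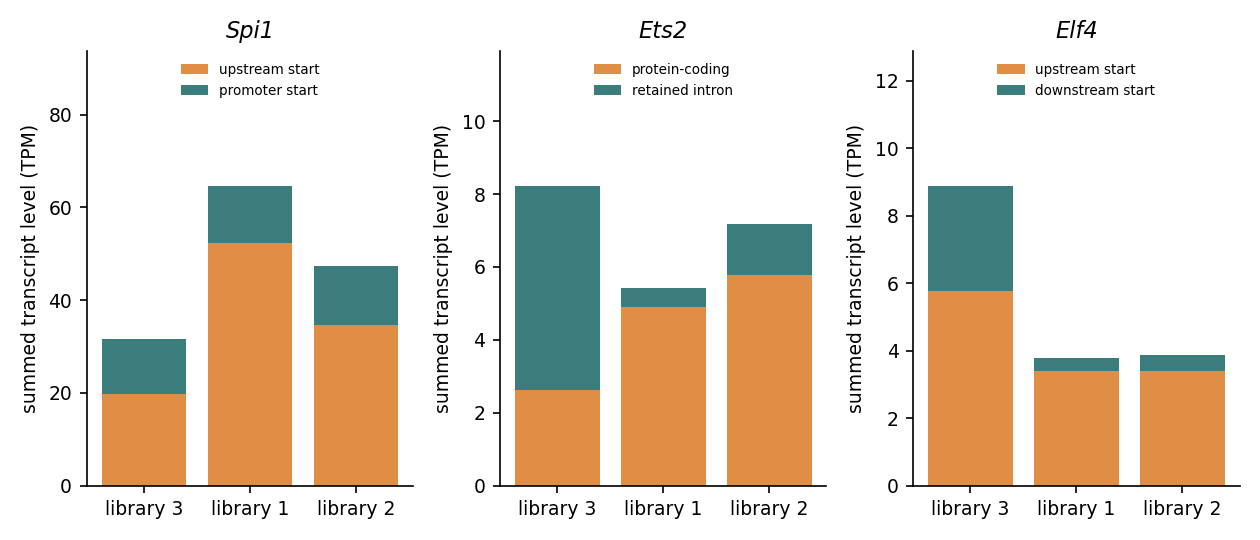
Summed transcript level in TPM by library for Spi1 and Elf4, split by start, and for Ets2, split by transcript class. In library 3 the upstream start of Spi1 is at 19.8 TPM, the retained-intron transcripts of Ets2 at 5.61 TPM and the downstream start of Elf4 at 3.12 TPM.

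Ets1 has a coding transcript, Ets1-202, that lacks the 261-base exon at chr9:32738099-32738359. In this family member that exon encodes part of the autoinhibitory region beside the ETS domain, so the junctions are given, with the downstream exon in capitals.
Ets1-201: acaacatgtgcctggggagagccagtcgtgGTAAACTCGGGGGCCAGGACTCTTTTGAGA
Ets1-202: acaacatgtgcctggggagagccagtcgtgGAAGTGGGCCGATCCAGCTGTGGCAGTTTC

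Ets1-202 had 1.25, 1.96 and 2.50 TPM in libraries 1, 2 and 3, or 4.09%, 7.63% and 4.56% of Ets1 TPM. Ets1-201 had 26.7, 21.4 and 45.5 TPM, or 87.2%, 83.3% and 83.1%, and the retained-intron Ets1-203, from an upstream start, held 8.67%, 9.03% and 11.5%. The full transcript was thus most of Ets1 in every library. In the second set of values Ets1-202 held 7.79%, 14.5% and 7.60%.

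Of the 10 genes, 7 had a single transcript above 50% of the gene's TPM in each library: Spi1, Spib, Ets1, Fli1, Elf1, Elf4 and Gabpa. The same held for 41.9% of 7731 coding genes with 2 or more transcripts and a mean of 1 TPM or more. For Spi1 that transcript was noncoding, and in the other 6 it was coding. Spib-201 held at least 92.6% and Fli1-201 at least 97.2% of the gene in every library. Elf1-202 held 63.1%, 56.5% and 70.5%, and Elf1-204, which shares its start cluster, 28.0%, 31.8% and 17.0%. In the second set of values Elf1-204 held 5.08%, 24.05% and 7.76%, and Elf1-202 still led with at least 64.8%. Elf1-203, noncoding, reached 11.7%. Nearly all of Elf1 came from the downstream of its annotated starts, at 98.4%, 100% and 98.2%.

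Elf2 was spread most widely. Its 3 main clusters of starts held 31.7%, 29.7% and 33.2% of Elf2 TPM in library 1, 35.2%, 38.7% and 18.95% in library 2, and 32.7%, 25.8% and 33.9% in library 3. In the second set of values the first cluster held the most, at 41.8%, 51.0% and 39.8% in libraries 1, 2 and 3. Its transcripts past 10% in some library were Elf2-201, Elf2-203, Elf2-206, Elf2-208 and Elf2-213. The highest share among them was 27.7%, for Elf2-208 in library 2. In the second set Elf2-208 held 0%, 7.79% and 2.84%, and the highest shares were those of Elf2-206, at 28.2% in library 1 and 25.9% in library 3, and of Elf2-201, at 27.2% in library 2. Etv6 was divided between Etv6-202, at 59.2%, 77.4% and 38.3%, and Etv6-201, which lacks 1 exon of 159 bases near the start, at 16.0%, 8.48% and 58.2%. Without that exon Etv6-201 is annotated with the longer coding sequence, 1455 bases, against 1188 bases for Etv6-202. In the second set of values Etv6-201 held 3.92%, 0% and 10.1%, so its share in library 3 was 58.2% in one set and 10.1% in the other. Etv6-203 and Etv6-205, both noncoding, reached 12.1% and 12.7%.

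Gabpa-201 held 53.0%, 51.6% and 59.8% and Gabpa-202 29.7%, 16.9% and 34.1%, which differ outside a common coding length. The noncoding Gabpa-203 was listed at 0% in libraries 1 and 3 and at 26.1% in library 2, and Gabpa-205, with a retained intron, reached 17.3%. The second set gave another picture, with Gabpa-203 at 10.9%, 39.9% and 11.3%, Gabpa-202 at 32.8%, 21.6% and 43.0% and Gabpa-201 at 29.2%, 28.1% and 34.6%. Neither the 0% of Gabpa-203 nor the order of the coding transcripts in libraries 1 and 3 held in both sets. Gabpa starts beside Atp5j, a subunit gene of the mitochondrial ATP synthase that runs the other way and overlaps it. Atp5j had 16.9, 11.7 and 20.4 TPM, and whether reads were counted by strand is not given in the labels, so both levels are uncertain where the genes overlap. The Gabpa start window (chr16:84834874-84835173, plus strand, GRCm38.p6, RefSeq) is shown because it holds ETS motifs, with GGAA or TTCC in capitals.
Gabpa start: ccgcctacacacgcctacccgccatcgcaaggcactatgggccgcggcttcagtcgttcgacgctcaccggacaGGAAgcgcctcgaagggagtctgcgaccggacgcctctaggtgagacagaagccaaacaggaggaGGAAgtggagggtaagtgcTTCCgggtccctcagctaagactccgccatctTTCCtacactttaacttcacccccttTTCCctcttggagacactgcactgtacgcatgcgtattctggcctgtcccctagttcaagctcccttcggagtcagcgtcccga

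RefSeq windows were found for 7 of the 10 genes (Spib, Ets2, Elf1, Elf2, Elf4, Etv6 and Gabpa), 10 windows in all. Counted on both strands, the upstream Elf4 window held 8 GGAA cores, the downstream one 2 and the Gabpa window 5, beside a median of 3 over 32851 windows, of which 96.0% held at least 1. The longer CCGGAAG, the form that GABP prefers, and GAGGAAG, the form that PU.1 prefers, were each in the Gabpa window and in none of the other 9. CCGGAAG was in 8.86% and GAGGAAG in 13.6% of all windows. Both contain the GGAA core. These matches describe letters and not binding.

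Set against libraries 1 and 2, library 3 had more Elf4 and Ets1 and less Spi1. The comparison used log2(TPM + 0.1) minus the median of 8298 coding genes with a mean of 1 TPM or more, which was shifted by 0.21 against library 1 and 0.37 against library 2. It counted genes past 1.5-fold against both. With 1 library on one side there is no test. The recorded fragment sizes also differ, at 200 to 1000 bp in library 3, against 200 to 594 bp in library 1 and 200 to 491 bp in library 2, and their part cannot be told apart from any other difference of library 3. Elf4 was higher by 1.01 (log2) against library 1 and by 0.81 against library 2, and Ets1 by 0.63 and 0.72. Spi1 differed by -1.24 and -0.95. Gabpa was past 1.5-fold against library 2 alone, at -0.66, and the other 6 genes against neither. By that rule 10.3% of coding genes were higher and 10.2% lower. Without the centring Spi1 differed by -1.03 and -0.58 and was no longer past the fold against library 2, and on TMM-scaled counts Ets1 differed by 0.54 and 0.67 and was no longer past it against library 1.

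When only protein-coding transcripts were summed, Elf4, at 1.04 and 0.82, and Ets1, at 0.63 and 0.70, stayed past the fold, and Ets2, at -1.04 and -1.46, joined Spi1, at -0.93 and -0.70, on the lower side. In that form 9.77% of coding genes were higher and 10.1% lower. The lower coding level of Ets2 was seen in the first set of transcript values alone. In the second set Ets2-201 had 2.84 TPM in library 3, against 7.73 TPM in library 1 and 7.27 TPM in library 2. Ets2-202, its other coding transcript, went the other way there, at 7.33 TPM, against 0 and 1.96 TPM. With all transcripts of that set Ets2 differed by 1.15 and 0.49. Spi1 was lower chiefly at its upstream start, by -1.61 against library 1 and -1.18 against library 2, beside -0.28 and -0.48 at the promoter start. The 2 starts of Elf4 were both higher, by 2.54 and 2.10 at the downstream start and by 0.54 and 0.38 at the upstream one.

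**Figure D4:**
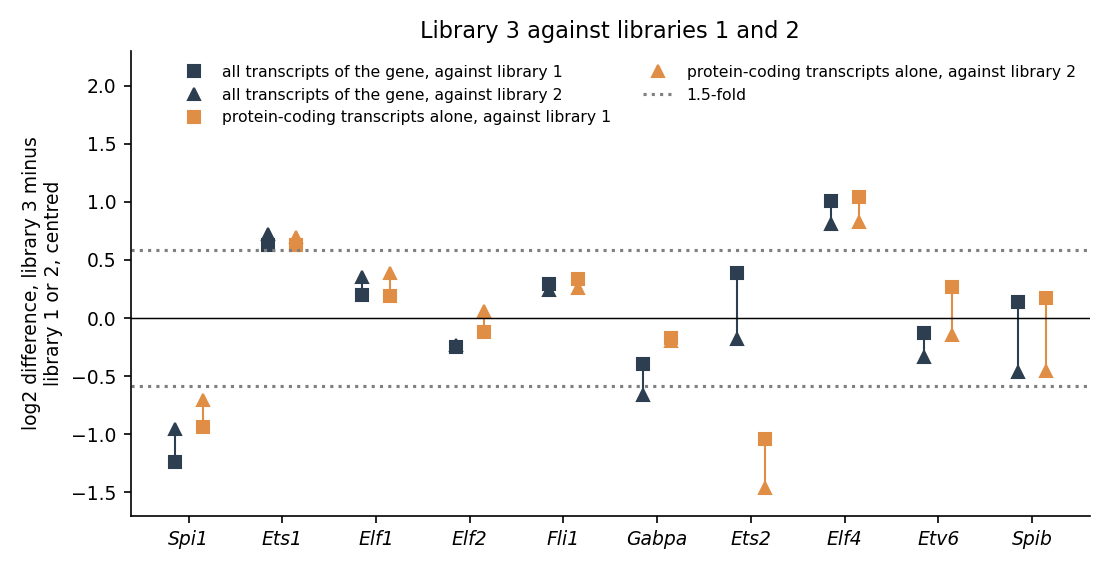
log2 difference of library 3 from library 1 (squares) and library 2 (triangles), each minus the median coding gene, for all transcripts of a gene (dark) and for its protein-coding transcripts alone (orange). Dotted lines mark 1.5-fold. Elf4 and Ets1 lie above and Spi1 below in both forms, and Ets2 lies below with coding transcripts alone.

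Library 3 also differed in the markers of other blood cells. All 10 NK markers were past 1.5-fold higher in it, with a summed level of 1808 TPM, against 734 TPM in library 1 and 638 TPM in library 2. Of 12 platelet markers 11 were higher, with sums of 119, against 19.7 and 13.6 TPM, and of 12 T cell markers 5 (Lck, Cd247, Lat, Tcf7 and Cd5), with sums of 73.6, against 29.9 and 24.98 TPM. Lck and Cd247, which NK cells also express, made up most of that sum, and without them it was 15.98, against 7.90 and 7.79 TPM. The other 7, Cd3d, Cd3e, Cd3g, Cd4, Cd8a, Trac and Cd28, were not past the fold. Monocyte markers summed to 1817 TPM in library 3, against 2772 TPM in library 1 and 2371 TPM in library 2, with 5 of 15 lower and 1 higher. The direction of this sum, which is not centred, rests on Lyz2 and Ctss. Without them the other 13 summed to 865 TPM in library 3, against 827 TPM in library 1 and 764 TPM in library 2. The median coding gene was also higher in library 3, by 0.21 and 0.37 (log2). Csf1r, Tyrobp, Cd68, Itgam, Ccr2 and Spn were not past the fold. Erythroid markers summed to 266, against 3554 and 3343 TPM, with 9 lower of 10 matched, and neutrophil markers to 9.67, against 143 and 128 TPM. The neutrophil sum in libraries 1 and 2 was mostly Retnlg, which had 0 TPM in library 3, against 124 and 114 TPM. Without it the sums were 9.67, against 18.1 and 13.9 TPM. Most of that rest in library 3 was Csf3r, at 8.09, against 5.99 and 6.64 TPM. Without both genes the sums were 1.58, against 12.1 and 7.25 TPM. By the fold rule 6 of the 12 neutrophil markers were lower and none higher. Basophil and eosinophil markers summed to 7.57, against 36.8 and 38.5 TPM, B cell markers to 92.7, against 105 and 107 TPM, and dendritic cell markers to 14.2, against 19.0 and 14.5 TPM. Klf1 (erythroid), Ly6g and Camp (neutrophil) and Epx (eosinophil) had 0 counts in all libraries. In bulk RNA, fewer cells of a type and less RNA per cell cannot be told apart. The part of these cells in the levels of Ets1, Elf4 and Spi1 was not tested.

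Beside the 10 genes, 17 other ETS genes were listed, of which 8 had enough counts to test. Above 1 TPM lay 3 of them, below it 1, and 4 were not told apart from it. The 3 were Elk4, at 13.5 TPM ± 6.04, Elk3, at 5.69 TPM ± 0.774, and Etv3, at 3.71 TPM ± 0.299 (SD, n = 3 each). Elk3 and Elk4 are partners of serum response factor and Etv3 is a repressor. Spic, a relative of PU.1 known from red pulp macrophages, had 1.60, 1.51 and 0.58 TPM in libraries 1, 2 and 3, a mean of 1.23 TPM. Etv5, a factor downstream of growth factor signalling, lay below at 0.277 TPM ± 0.0569 (SD, n = 3; edgeR adjusted p = 0.0111). No count was seen for 6 genes, for which 3 counts per library would be at most 0.279 TPM. The 10 genes held 87.9%, 87.2% and 84.0% of the summed TPM of the 27 in libraries 1, 2 and 3.

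Of 13 genes for partners and antagonists of PU.1, 9 lay above 1 TPM and none below, beside 43.2% above and 6.35% below over all genes tested. Among coding genes alone, 7018 of 12984 lay above and 781 below. Cebpb, a myeloid activator, had 39.0 TPM ± 13.5, Jun, the AP-1 subunit, 31.6 TPM ± 29.9, and Irf8, which binds composite sites with PU.1, 30.3 TPM ± 10.2 (SD, n = 3 each). Jun was uneven, at 66.2 TPM in library 3, against 14.8 TPM in library 1 and 13.9 TPM in library 2. Gata1, the antagonist of PU.1 in red cells, was lowest, at 0.15, 1.68 and 0.34 TPM. By the fold rule 4 of the 13 were higher and 2 lower in library 3, beside 10.3% higher and 10.2% lower over coding genes.

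Of 20 known PU.1 targets, 17 lay above 1 TPM and none below, beside the same 43.2% and 6.35%. Among coding genes alone it was again 7018 of 12984 above and 781 below. Lyz2, myeloid lysozyme, had a mean of 1135 TPM, Ctss, a lysosomal protease, 367 TPM, and Cybb, a subunit of the phagocyte oxidase, 117 TPM. Il7r was lowest at 0.737 TPM. In library 3, 9 of the 20 were past the fold lower, among them Lyz2, Ctss and Cybb, and none higher, beside 10.2% and 10.3% of coding genes. The list shares 7 genes with the monocyte markers. Its median mean level was 18.5 TPM, beside 2.09 TPM over coding genes tested.

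GABP binds DNA as Gabpa joined to a beta subunit, and both beta genes lay above 1 TPM. Gabpb2 had 9.13, 8.54 and 13.3 TPM and Gabpb1 2.37, 2.80 and 2.67 TPM in libraries 1, 2 and 3. Neither was past the fold in library 3. Of 14 known GABP targets, 11 lay above 1 TPM and none below, with a median mean level of 5.73 TPM. Beside them stood 43.2% and 6.35% of all genes tested, and 7018 and 781 of the 12984 coding genes. Atp5b, of the ATP synthase, had 69.4 TPM ± 8.08, Ucp2, a mitochondrial carrier, 37.8 TPM ± 6.68, and Cox4i1, of cytochrome oxidase, 35.2 TPM ± 2.54 (SD, n = 3 each). Yap1 was lowest, at 0.107 TPM. In library 3, 1 of the 14 was past the fold higher and 1 lower, a share near the 10.3% and 10.2% of coding genes.

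Of 15 genes that modify ETS factors, 13 lay above 1 TPM and none below, beside 43.2% and 6.35% of all genes tested. Of the 12984 coding genes tested, 7018 lay above and 781 below. Ncor1, a corepressor used by Etv6, had 33.7 TPM ± 10.5, Sp100, a nuclear body protein that binds Ets1, 32.04 TPM ± 15.7, and Cop1, a ubiquitin ligase that degrades ETS proteins, 20.1 TPM ± 1.93 (SD, n = 3 each). Trib2, an adaptor of Cop1, was lowest at 0.737 TPM. In library 3, 4 were past the fold higher, Sp100 and the coactivators Crebbp and Ep300 among them, and none lower, beside 10.3% and 10.2% of coding genes.

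**Figure D5:**
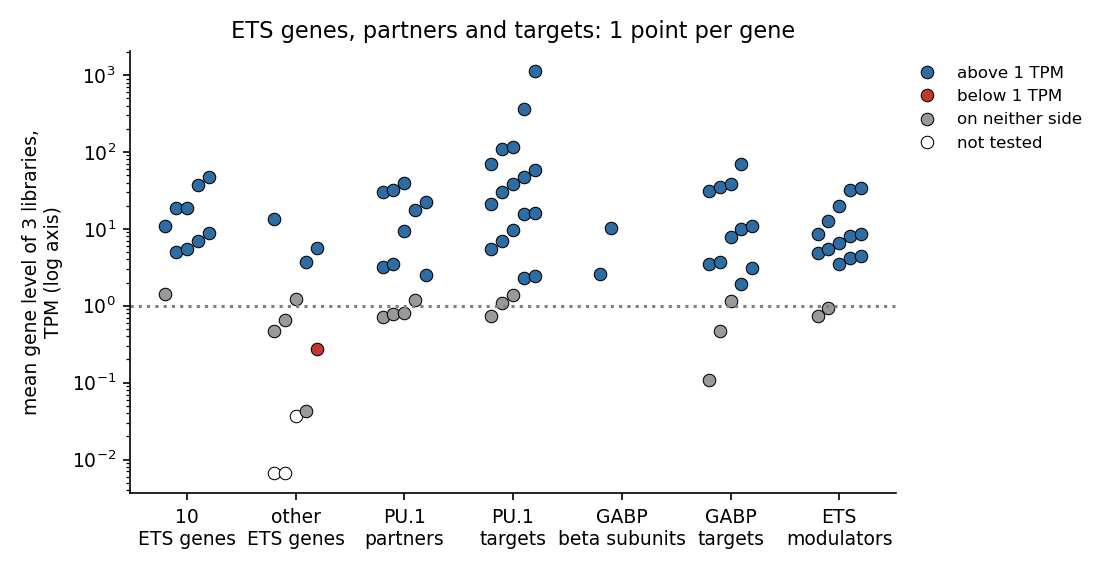
Mean gene level over 3 libraries in TPM (log axis), 1 point per gene, for the 10 ETS genes, the other ETS genes and 5 lists of their partners and targets, coloured by the test against 1 TPM. Genes at 0 are not drawn. Of the 10 ETS genes 9 lie above 1 TPM, beside 3 of 17 other ETS genes.

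Windows at the start were found for 12 of the PU.1 targets, and GAGGAAG was in those of 7 genes, Itgam, Ctss, Btk and Csf3r among them, beside 15.4% of 27025 genes. CCGGAAG was in the windows of 5 of 13 GABP targets, Tfam, Polrmt, Sdhd, Mrps12 and Hcfc1, beside 9.93% of genes. CCGGAAG was in none of the 12 PU.1 targets, while GAGGAAG was in 4 of the 13 GABP targets, Hcfc1, Sdhd, Tfb2m and Yap1. In the windows of 10 ETS modulators, CCGGAAG was in 3 and GAGGAAG in 2. Among the marker lists, GAGGAAG was in 5 of 11 neutrophil, 4 of 10 platelet and 3 of 9 T cell genes. It was in 2 of 9 NK, 2 of 11 monocyte, 1 of 7 erythroid and 1 of 9 basophil and eosinophil genes. In the 7 B cell and 8 dendritic cell genes it was in 0. The 2 monocyte genes, Ctss and Itgam, and Csf3r of the neutrophil genes are also on the list of PU.1 targets. The platelet, T cell and NK lists share no gene with it. A share above that of all genes was thus not particular to the PU.1 targets.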

How the data were processed

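Total RNA-seq of 3 libraries was used. The deposited tables hold an expected count (an estimated count of reads, not always whole) and TPM per gene and transcript, made by the authors on mm10 with the M21 release of GENCODE and a second time with its M4 release, per the accompanying notes. The score columns, deposited bounds of TPM and a posterior standard deviation of the count, were used to see whether reads were shared with other genes. A second deposited set of M21 transcript values was derived from the reads. Neither the programs nor the strand setting is given in the labels used here. Depth was 27158565, 26541404 and 19917940 expected counts in libraries 1, 2 and 3, and 1 TPM stood for 112, 121 and 76.0 counts at 1000 bases. Rows that name no gene held at most 0.000571% of counts and were left out.

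Counts were rounded. An intercept-only model was fitted by glmQLFit of edgeR 4.0.16, with the count that 1 TPM stands for as offset, so that the F test, computed from the deviances of the fit, is a two-sided test of 1 TPM. The test covered genes whose counts summed to at least 10, and the Benjamini-Hochberg adjusted threshold was 0.05. The fit was tested on simulated data. DESeq2 1.42.0 and limma 3.58.1 were alternatives. Transcript starts within 1000 bases were joined into a cluster. Limits from 3 counts cover counting error only. All 10 genes were named, with transcripts past 10% of a gene, other ETS genes with a mean of 1 TPM or more, and the 3 highest and the lowest gene of each partner, target and modulator list; the other genes and features were chosen after their values were seen. The 10 genes and the lists were chosen with earlier results of these data known.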

Additional observations from a re-analysis of the deposited data

How the results depend on the processing

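The count of 9 genes above 1 TPM was 9 or 10 and the count below was 0 under all 16 alternatives, which included DESeq2, limma and leaving out each library. Spib was the gene added, with the second program, the protein-coding scale and a level of 0.5 TPM, and against 2 TPM its fitted log2 level was -0.50 (edgeR adjusted p = 0.148). With 1 library left out, the count above was 9 each time.

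Between library 3 and the others, a 2-fold threshold left 0 genes in all, 0 higher and 0 lower. The higher count, 2, was 1 with the second program and 1 on TMM-scaled counts (Elf4 alone). The lower count, 1, was 0 without centring and 2 for protein-coding transcripts alone, an alternative added after seeing the data. Leaving out library 1 or 2 gave 1 to 2 lower genes, Gabpa joining without library 1 at -0.66. Over all coding genes tested, no centring gave 19.7% higher and 4.12% lower.

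The count of genes with 1 transcript above 50% was 7, and 4 with the second program, which lost Spi1, Elf4 and Gabpa; it was 7 to 9 with a library left out, Ets2 and Etv6 joining without library 3. Mean TPM moved by more than 1 SD for 10 of 10 genes with the second program and on the protein-coding scale, for 5 with coding transcripts alone, and for 0 in M4. The cause was not tested. Genes below 1 TPM over all genes were 1123, but 239 by DESeq2, 6304 and 6751 by limma, 1805 with the second program, 1 on the protein-coding scale, 176 against 0.5 TPM, 3396 against 2 TPM, 251 without library 1 and 381 without library 2. Genes above were 7638, and 12092 on the protein-coding scale. No paired analysis was possible because the series holds 1 group. In alternatives added after seeing the data, marker lists were summed without their highest gene or 2 highest genes. The log2 ratio of library 3 to the mean of the others, taken without centring, turned to 0.12 for monocyte markers without 2 genes. That is below the shift of the median coding gene, 0.21 against library 1 and 0.37 against library 2. The other lists kept their direction.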
